A study of Mus musculus with 6 samples.

Results

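Conjugation with glucuronic acid or sulfate is a way in which the liver makes bilirubin, steroids, bile acids, phenols and drugs soluble enough to leave in bile and urine. UDP-glucuronosyltransferases (UGTs) sit in the membrane of the endoplasmic reticulum and take the sugar from UDP-glucuronate. Cytosolic sulfotransferases (SULTs) take the sulfate from PAPS (3′-phosphoadenosine 5′-phosphosulfate), which the synthases Papss1 and Papss2 make from ATP and sulfate.

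The 30 genes described here are every entry of the deposited table whose symbol begins with Ugt1, Ugt2, Ugt3 or Sult and a digit, together with Papss1 and Papss2, out of 16638 genes in all. They comprise 8 Ugt1a, 8 Ugt2, 2 Ugt3a and 10 Sult genes and the 2 synthases. They were measured by RNA sequencing of 6 livers of obese mice, 3 given HA (hippuric acid, a glycine conjugate of benzoic acid) by intraperitoneal injection at 60 mg/kg, 2 times a week over 5 weeks, and 3 given PBS, the saline control. The title of the series names UGDH, the enzyme that makes UDP-glucuronate, as a target of hippuric acid in steatotic liver disease. The strain, sex, age and diet of the mice, the cause of their obesity and the PBS schedule are not stated in the labels. Separate animals are not named for the livers, so p-values measure only how these samples vary, part of which may be technical.

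Each library held 37921444 to 39908844 fragments, and members with a mean of at least 5 FPKM rested on at least 145 fragments in every library. FPKM divides the fragments of a gene by its length and by the depth of the library, so comparing levels between genes depends on the lengths used. The length recovered from the values was 4264 bases for Sult1a1 and 1197 for Sult1d1. An annotated transcript of each (GENCODE M21) has 1370 and 2420 bases. Ranks between genes, family sums and shares are uncertain to that extent. All 8 hepatocyte markers were present, with a summed level of 50464 to 62160 FPKM in the PBS and 77024 to 91002 FPKM in the HA libraries. PBS replicate 1 stood apart in holding 62.6 FPKM of 8 adrenal cortex markers and 44.5 FPKM of 6 skeletal muscle markers, against at most 0.391 and 0.979 FPKM in the other 5 libraries. Alb accounted for 7.53 to 9.82% of PBS fragments and 12.5 to 14.7% of HA fragments. Fewer cells of a type and less RNA per cell cannot be told apart in bulk liver.

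Ugt2b1, Sult1c2 and Sult2a7 fell in the livers given HA, and none of the other members rose or fell past the threshold (limma on log2(FPKM + 1), adjusted p under 0.05 over 10745 genes). The members tested were the 24 whose mean over all 6 livers reached 0.5 FPKM. The 3 that fell were 12.5% of the members tested, and over all genes tested 0.512% fell. None of the members rose, where 0.289% of all genes did. At an unadjusted p under 0.05, 15 of the 24 members were lower and 0 higher, where 13.1% of all genes were lower and 4.61% higher. With voom on the fragments, 1 member fell and 0 rose, where 0.344% of all genes fell and 0.214% rose.

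The 3 livers given HA lay below all 3 PBS livers in 14 of the 24 members (58.3%), where 19.2% of all genes tested did so. The reverse order was seen in none of the members and in 6.47% of all genes. The fitted change was below 0 for 21 members (87.5%) and for 62.8% of all genes tested. The median log2 fold change was -0.58 over the members and -0.06 over all genes. Without PBS replicate 1 the median over the members was again -0.58, with 21 below 0, and 0 members passed the threshold, where 4 genes in all fell.

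By family, the median log2 fold change was -0.56 for 5 Ugt1a genes, -0.64 for 7 Ugt2 genes, -0.48 for the 2 Ugt3a genes and -0.59 for 8 Sult genes. All 7 Ugt2 genes and both Ugt3a genes were below 0, as were 4 of 5 Ugt1a and 7 of 8 Sult genes. The members above 0 were Ugt1a5, Sult1a1 and Papss1, none of which passed the threshold.

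**Figure D1:**
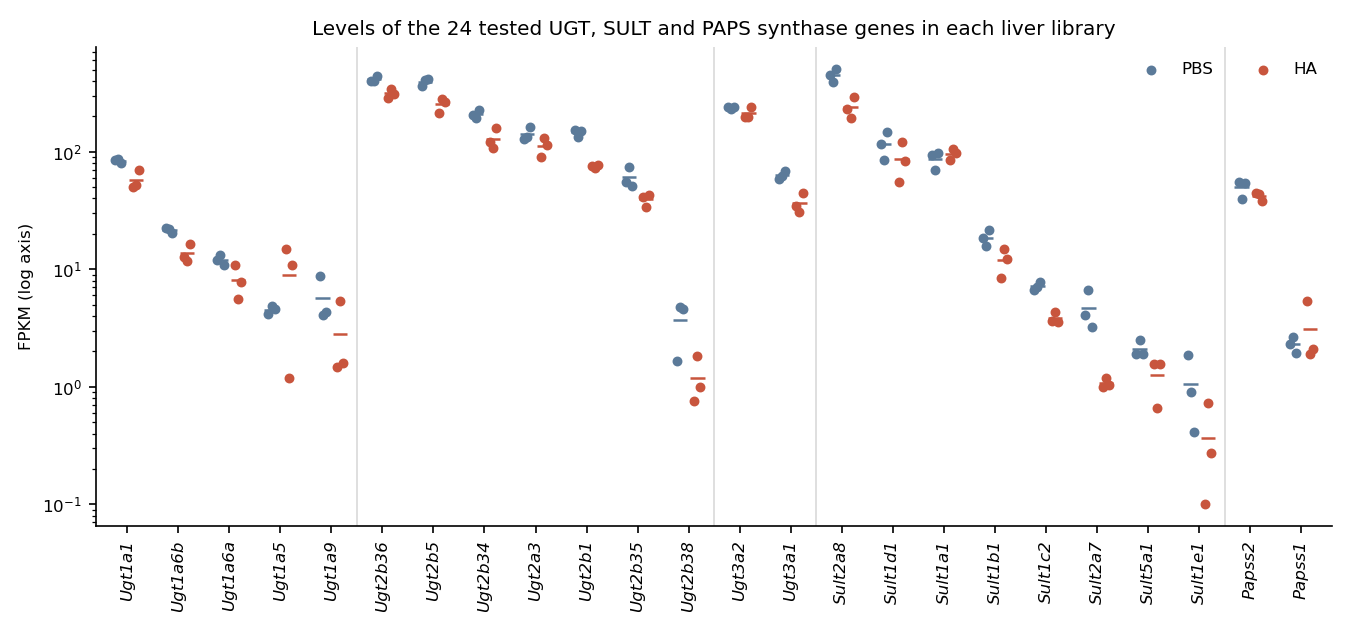
FPKM on a log axis of the 24 tested members in each library, PBS in blue and HA in red, with the mean of each group as a bar. Ugt2b36, Ugt2b5 and Sult2a8 are the most abundant, and the HA points lie under all PBS points in 14 of the genes.

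**Figure D2:**
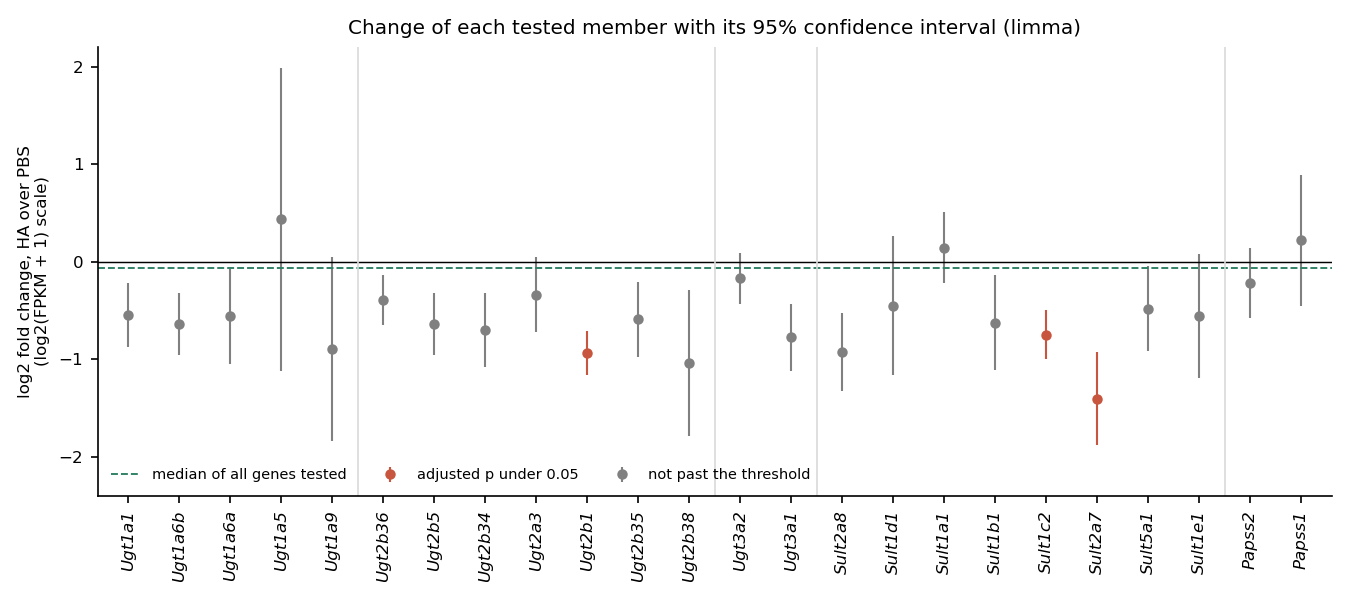
Fitted log2 fold change of HA over PBS on the log2(FPKM + 1) scale, with 95% confidence intervals from limma, for the 24 tested members in order of family and level. Ugt2b1, Sult1c2 and Sult2a7 (red) passed the adjusted threshold, and the dashed line marks the median of all genes tested.

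The Ugt2b genes lie together on mouse chromosome 5 and encode the UGTs that conjugate steroids, bile acids and many drugs. Their promoters are shown because the 6 tested Ugt2b genes were all below 0. In the RefSeq promoter windows (build GRCm38.p6, 250 bases before to 50 after each start), all 7 Ugt2b members held GTTA followed by 4 bases of any kind and TTAAC. This spelling was chosen after the promoters were seen, both strands were searched, and no other motif was looked for. It is a form of the element recognised by HNF1, a hepatocyte factor known to act on UGT2B promoters in rat and human. It began 61 to 89 bases upstream of the start and was found in 62 of 32851 promoter windows (0.189%). It was found in 8 of the 26 members with a window, the other one being Ugt3a1. Each window of 41 bases below is written 5′ to 3′ on the strand of its gene, with the match in capitals.
Ugt2b1: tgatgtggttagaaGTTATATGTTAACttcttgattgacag
Ugt2b36: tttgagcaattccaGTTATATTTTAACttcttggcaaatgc
Ugt2b5: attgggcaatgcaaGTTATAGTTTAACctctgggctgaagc
Ugt2b34: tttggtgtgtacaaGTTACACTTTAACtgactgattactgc
Ugt2b35: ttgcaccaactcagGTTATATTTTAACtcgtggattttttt
Ugt2b38: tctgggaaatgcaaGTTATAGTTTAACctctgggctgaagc
The windows lie on the minus strand at chr5:86926566-86926606 for Ugt2b1, chr5:87092593-87092633 for Ugt2b36, chr5:87140375-87140415 for Ugt2b5, chr5:86906984-86907024 for Ugt2b34 and chr5:87424241-87424281 for Ugt2b38. That of Ugt2b35 lies on the plus strand at chr5:87000776-87000816. A match is a run of letters and does not show binding.

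Ugt2b1 fell to 51.7% of the PBS mean. Its levels were 152, 135 and 150.3 FPKM in PBS replicates 1 to 3 and 76.0, 73.2 and 76.5 FPKM in HA replicates 1 to 3. The 3 HA livers lay close to each other, well below every PBS liver. The means were 146 ± 9.60 and 75.2 ± 1.81 FPKM (SD, n = 3 each), a fitted log2 change of -0.94 (SE 0.10, limma adjusted p = 0.0161). Without each library in turn the change ranged from -0.997 to -0.91 and passed the threshold only without HA replicate 1 or HA replicate 2. Its adjusted p was 0.101 without PBS replicate 1, 0.0540 without PBS replicate 2, 0.109 without PBS replicate 3 and 0.0510 without HA replicate 3. No stretch of 100 bases of its annotated transcript occurs in another gene's transcript.

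Ugt2b36 was the most abundant UGT, at 400.1, 398 and 441 FPKM in the PBS livers and 289, 341 and 313 FPKM in the HA livers. The groups did not overlap, but the difference did not pass the threshold (-0.40, SE 0.11, limma adjusted p = 0.133). Ugt2b5 was at 360.3, 406 and 415 FPKM after PBS and 212, 282 and 267 FPKM after HA, again without overlap (-0.64, SE 0.14, limma adjusted p = 0.0833). Of the Ugt2b5 transcript, 24.7% of the stretches of 100 bases occur in Ugt2b38, so fragments of that pair could have been divided either way.

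Ugt2b34 stood at 204, 193 and 229 FPKM after PBS and 121, 107 and 159.6 FPKM after HA. Every HA liver was lower, HA replicate 3 least so, and the test was not passed (-0.71, SE 0.16, limma adjusted p = 0.0933). Ugt2b35 was at 55.0, 74.7 and 51.3 FPKM against 41.3, 34.1 and 42.5 FPKM, with no overlap (-0.59, SE 0.16, limma adjusted p = 0.134). Its highest value, in PBS replicate 2, stands above the other 2 PBS livers.

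Ugt2b38 was a minor transcript at 3.67 ± 1.75 FPKM after PBS and 1.18 ± 0.556 FPKM after HA (SD, n = 3 each). The groups overlapped, because PBS replicate 1 at 1.65 FPKM was below HA replicate 2 at 1.81 FPKM. Its fitted change of -1.04 (SE 0.32) had a limma adjusted p of 0.161. Ugt2b37 did not reach the minimum level for the test.

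Ugt2a3, a UGT of the same chromosome cluster, was at 127, 133 and 163 FPKM in the PBS livers and 90.6, 131 and 115 FPKM in the HA livers, so the groups overlapped through HA replicate 2. The log2 change was -0.34 (SE 0.16, limma adjusted p = 0.326).

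The Ugt1a genes are a special case, because each is a first exon with its own promoter that is spliced to 1 common set of exons on chromosome 1. In GENCODE M21 (build GRCm38, plus strand) exons 2 to 5 are shared by all 8 members and hold 2316 bases, the first of them at chr1:88215044-88215175. The junctions are shown because only exon 1 tells the members apart. The last 20 bases of exon 1 are in lower case and the first 40 bases of the shared exon 2 in capitals.
Ugt1a1: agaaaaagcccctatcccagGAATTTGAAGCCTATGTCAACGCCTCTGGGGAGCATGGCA
Ugt1a5: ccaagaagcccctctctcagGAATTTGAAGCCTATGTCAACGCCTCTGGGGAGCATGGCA
Ugt1a6b: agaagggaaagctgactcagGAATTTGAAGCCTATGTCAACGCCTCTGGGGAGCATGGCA
Ugt1a9: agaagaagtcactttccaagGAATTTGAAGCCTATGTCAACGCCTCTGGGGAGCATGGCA
The exon 1 parts end at bases 88212871, 88166903, 88107799 and 88071678 of chromosome 1, in the order printed, and the exon 2 part is chr1:88215044-88215083. Exon 1 ended in 6 distinct forms among the 8 genes. Ugt1a5 and Ugt1a2 had the same one, as did Ugt1a6a and Ugt1a6b. The gene length behind the FPKM values was equal to exon 1 plus the shared exons for Ugt1a1, Ugt1a5 and Ugt1a10, of which 71.4 to 72.2% is shared sequence. Ugt1a10 nevertheless held a mean of 12 fragments in the PBS libraries while Ugt1a1 held 10559, so fragments of the shared exons were not added to every member. How they were divided is not stated, and the Ugt1a values below are uncertain for that reason.

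Ugt1a1, the bilirubin transferase and the main Ugt1a transcript, was at 84.9, 86.1 and 80.1 FPKM in the PBS livers and 50.3, 52.5 and 70.2 FPKM in the HA livers. All 3 HA livers were lower, with HA replicate 3 nearest to the PBS livers. The change did not pass the threshold (-0.54, SE 0.14, limma adjusted p = 0.119).

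Ugt1a6a and Ugt1a6b conjugate small planar phenols. Ugt1a6b was at 22.6, 21.98 and 20.1 FPKM after PBS and 12.7, 11.7 and 16.5 FPKM after HA (-0.64, SE 0.14, limma adjusted p = 0.0840). Ugt1a6a was at 12.0, 13.1 and 10.9 FPKM after PBS and 10.8, 5.53 and 7.77 FPKM after HA (-0.56, SE 0.21, limma adjusted p = 0.224). Neither overlapped between groups, though for Ugt1a6a HA replicate 1 was only just below PBS replicate 3. Of the Ugt1a6b transcript, 69.2% of the stretches of 100 bases occur in Ugt1a6a. This includes the exons shared by all Ugt1a members, and for Ugt1a1 the shared part was 57.2%. Of the Ugt1a6a transcript, 97.7% of the stretches occur in another gene's transcript, mostly that of Ugt1a7c. Fragments of these genes too could have been divided in more than 1 way, and not only within the pair.

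Ugt1a5 and Ugt1a9 differed more among the HA livers than between the groups. Ugt1a5 was at 4.15, 4.86 and 4.54 FPKM in the PBS livers and at 14.9, 1.18 and 10.8 FPKM in the HA livers. HA replicates 1 and 3 were above, and HA replicate 2 below, every PBS liver, a 12.6-fold range within the group. The fitted change was 0.43 (SE 0.66, limma adjusted p = 0.763). Leaving out HA replicate 1 gave -0.12, and leaving out HA replicate 2 gave 1.32, which passed the threshold (limma adjusted p = 0.0232).

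Ugt1a9, a transferase for bulky phenols, showed the opposite order among the HA livers. It was at 8.74, 4.07 and 4.30 FPKM after PBS and at 1.47, 5.35 and 1.61 FPKM after HA. HA replicate 2 lay inside the PBS range and the others below it. With all libraries the fold of PBS over HA was 2.03 (-0.89, SE 0.40, limma adjusted p = 0.299). It was 3.71 without HA replicate 2 and 1.49 without PBS replicate 1, the highest of the PBS livers.

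The summed level of 6 Kupffer cell markers also differed among the HA livers, at 119, 76.8 and 148 FPKM in HA replicates 1 to 3 and 61.2 to 75.7 FPKM in the PBS livers. Its part in the Ugt1a5 and Ugt1a9 values was not tested.

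**Figure D3:**
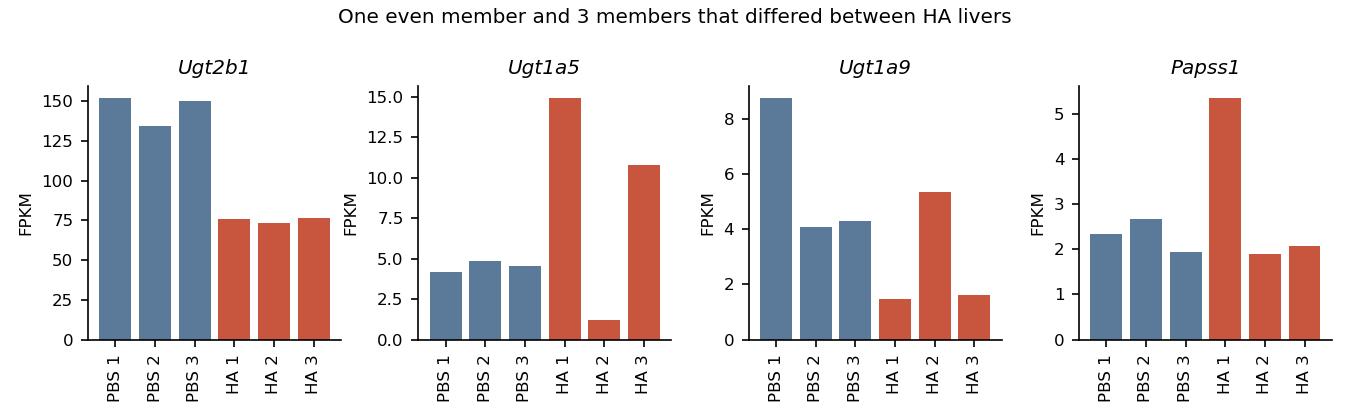
FPKM in each of the 6 libraries, PBS in blue and HA in red, for Ugt2b1, Ugt1a5, Ugt1a9 and Papss1. Ugt2b1 is even within both groups, whereas HA replicate 2 is lowest for Ugt1a5 and highest of the HA livers for Ugt1a9, and HA replicate 1 alone is high for Papss1.

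The human UGT3A enzymes use sugars other than glucuronate, UDP-N-acetylglucosamine for UGT3A1 and UDP-glucose or UDP-xylose for UGT3A2. Ugt3a2 was the more abundant of the mouse pair, at 241, 231 and 240.3 FPKM after PBS and 196, 199 and 239 FPKM after HA. HA replicate 3 lay among the PBS values and the groups overlapped (-0.17, SE 0.11, limma adjusted p = 0.454). Ugt3a1 was at 58.9, 61.96 and 68.6 FPKM after PBS and 34.6, 30.9 and 44.8 FPKM after HA. Here the groups were well apart, but the adjusted p missed the threshold (-0.78, SE 0.15, limma adjusted p = 0.0674).

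Among the sulfotransferases, the Sult2a genes encode enzymes for hydroxysteroids and bile acids. Sult2a7 fell to 23.0% of the PBS mean, the largest fold among the 3 members past the threshold. Its levels were 4.11, 6.59 and 3.23 FPKM in the PBS livers, from 177, 290 and 136 fragments, and 0.992, 1.19 and 1.03 FPKM in the HA livers, from 43, 50 and 43 fragments. The lowest PBS liver was above every HA liver, and the PBS livers were spread more widely than the HA livers. The means were 4.65 ± 1.74 and 1.07 ± 0.104 FPKM (SD, n = 3 each), with a log2 change of -1.41 (SE 0.20, limma adjusted p = 0.0411). That scale understates the change of a low gene, and the fold of the means was 4.34. The call was lost without any one of the 6 libraries, PBS or HA, with limma adjusted p from 0.0509 to 0.142, and under voom (adjusted p = 0.0577).

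Sult2a8, which sulfates bile acids in mouse liver, was the most abundant sulfotransferase. It was at 446, 395 and 508 FPKM after PBS and at 229, 194 and 289.7 FPKM after HA. The groups did not overlap and the PBS mean was 1.89 times the HA mean, yet the adjusted p was above the threshold (-0.93, SE 0.17, limma adjusted p = 0.0639). No stretch of 100 bases of the Sult2a7 or Sult2a8 transcript occurs in another gene.

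Sult1c2 fell to 53.9% of the PBS mean. It was at 6.66, 7.00 and 7.75 FPKM in the PBS livers and 3.61, 4.36 and 3.56 FPKM in the HA livers, with no overlap. The means were 7.14 ± 0.560 and 3.84 ± 0.447 FPKM (SD, n = 3 each), a log2 change of -0.75 (SE 0.11, limma adjusted p = 0.0411). The call held without HA replicate 2 and was lost without each of the other 5 libraries, with limma adjusted p from 0.0355 to 0.147 over the 6. It was also lost under voom (adjusted p = 0.0576), with median centring (limma adjusted p = 0.0543) and with scaling outside Alb (limma adjusted p = 0.0554).

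The other Sult1 genes did not pass the threshold. Sult1a1, a broad phenol sulfotransferase, was at 94.3, 70.5 and 96.7 FPKM after PBS and 84.4, 106 and 97.1 FPKM after HA. It was the only Sult gene above 0, at a log2 change of 0.14 (95% interval -0.22 to 0.50, limma adjusted p = 0.653), and this became -0.000601 without PBS replicate 2. Sult1d1, a catecholamine sulfotransferase of mice, varied widely within both groups, at 115, 84.8 and 146 FPKM after PBS and 55.0, 122 and 83.1 FPKM after HA. HA replicate 2 lay within the PBS range and HA replicate 1 at the bottom (-0.45, SE 0.30, limma adjusted p = 0.473). Sult1b1, which sulfates thyroid hormones, was at 18.5, 15.6 and 21.7 FPKM after PBS and 8.42, 14.9 and 12.3 FPKM after HA. Its groups came close without overlapping (-0.63, SE 0.21, limma adjusted p = 0.186).

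The remaining tested sulfotransferases were low. Sult5a1 was at 2.10 ± 0.344 FPKM after PBS and 1.26 ± 0.515 FPKM after HA (SD, n = 3 each), with all HA livers lower (-0.48, SE 0.19, limma adjusted p = 0.240). Sult1e1, the estrogen sulfotransferase, was at 1.06 ± 0.741 FPKM after PBS and 0.367 ± 0.324 FPKM after HA, with overlap (-0.56, SE 0.27, limma adjusted p = 0.329). Its values rested on 5 to 92 fragments a library, and the fold of PBS over HA moved from 2.89 to 1.79 without PBS replicate 1 and to 5.69 without HA replicate 2.

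The synthases that supply PAPS showed no common direction. Papss2, the main form in these livers, was at 55.6, 39.2 and 53.9 FPKM after PBS and 44.2, 44.0 and 37.9 FPKM after HA. The groups overlapped (-0.22, SE 0.15, limma adjusted p = 0.484). Papss1 was at 2.33, 2.67 and 1.95 FPKM after PBS and 5.35, 1.89 and 2.08 FPKM after HA, a high value in HA replicate 1 alone. Its log2 change was 0.22 (SE 0.29, limma adjusted p = 0.723) and turned to -0.15 without that library.

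The other 6 members, Ugt1a2, Ugt1a7c, Ugt1a10, Ugt2b37, Sult2a2 and Sult3a1, were below the minimum mean and were not tested. They held 0 to 40 fragments a library and at most 0.626 FPKM. Sult2a2 had no fragment in HA replicates 1 and 3, which allows up to 0.103 and 0.107 FPKM by a limit of 3 fragments a library. Ugt1a2 had none in HA replicate 2, which allows up to 0.0245 FPKM. These limits cover counting error only.

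Summed over the 18 Ugt genes, the transcript level was 1733, 1768 and 1883 FPKM in the PBS livers and 1153, 1275 and 1365 FPKM in the HA livers. The groups did not overlap, with means of 1795 ± 78.3 and 1264 ± 107 FPKM (SD, n = 3 each), a ratio of 1.42 of PBS over HA. The ratio was 1.399 for Ugt1a, 1.48 for Ugt2 and 1.21 for Ugt3a, and in each of these sums the HA livers lay below the PBS livers. The 10 Sult genes summed to 689, 584 and 787 FPKM after PBS and 384, 444 and 489 FPKM after HA, a ratio of 1.56. Within them the Sult2a sums did not overlap, at a ratio of 1.90, whereas the Sult1 sums overlapped at 229.5 ± 47.6 and 198 ± 48.0 FPKM. No test was made on the sums, which also depend on the gene lengths behind the FPKM values.

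Some shares of the family sums did not overlap between the groups, as a description without a test. Those given here are a selection, and overlap depended on the sum taken. Sult2a8 was 64.5 to 67.7% of the Sult sum in the PBS livers and 43.8 to 59.7% in the HA livers. Sult1a1 was 12.1 to 13.7% of it with PBS and 19.8 to 23.9% with HA. Ugt2b1 was 10.01 to 11.7% of the Ugt2 sum with PBS and 7.55 to 9.15% with HA, while Ugt2b36 was 29.6 to 30.8% and 32.1 to 35.2%. As a share of all Ugt genes Ugt2b36 overlapped, at 22.5 to 23.4% with PBS and 22.9 to 26.7% with HA. Ugt3a2 was 12.8 to 13.9% of the sum of all Ugt genes with PBS and 15.6 to 17.5% with HA. Other shares overlapped, among them those of Ugt1a1 in the Ugt1a sum, at 64.0 to 66.7% and 55.6 to 68.8%, and of Ugt2b5 in the Ugt2 sum, at 27.7 to 30.2% and 25.6 to 29.1%. Papss2 made up 93.6 to 96.5% of the synthase sum with PBS and 89.2 to 95.9% with HA, also with overlap.

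**Figure D4:**
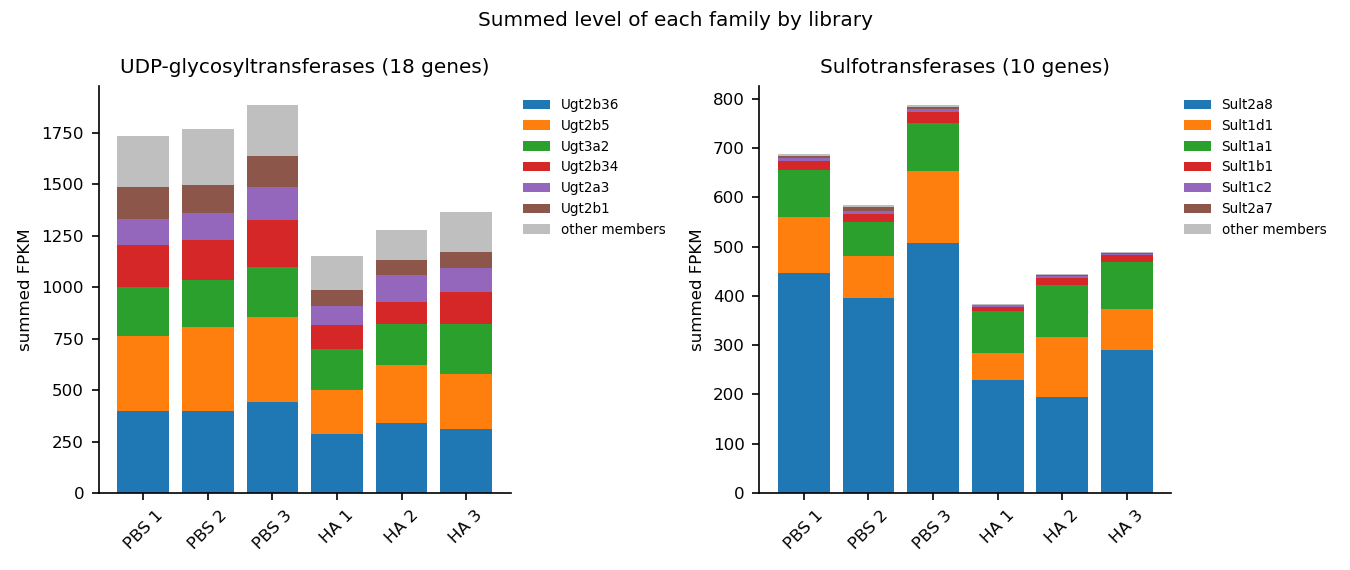
Summed FPKM of the 18 Ugt genes (left) and the 10 Sult genes (right) in each library, stacked by the 6 most abundant genes of each and the rest. The Ugt sum is 1733 to 1883 FPKM after PBS and 1153 to 1365 FPKM after HA, and the part taken by Sult2a8 is smaller in the HA livers.

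The genes around conjugation were taken as lists and described by their counts. UDP-glucuronate and other UDP-sugars are made in the cytosol and carried into the endoplasmic reticulum. Of 10 tested genes of this supply, 1 fell, 0 rose and 8 were below 0, beside 0.512%, 0.289% and 62.8% of all genes. The median log2 change of the list was -0.23. The one that fell was Entpd5, a UDPase of the endoplasmic reticulum, from 61.97 ± 2.48 to 32.1 ± 6.28 FPKM (-0.94, SE 0.14, limma adjusted p = 0.0424, SD, n = 3 each). Without 1 library its call held only without HA replicate 3, with limma adjusted p up to 0.173, and it was lost with median centring (0.0543) and with scaling outside Alb (0.0637). Ugdh, which makes UDP-glucuronate, was at 74.3, 80.8 and 74.3 FPKM after PBS and 61.1, 36.4 and 49.1 FPKM after HA (-0.66, SE 0.18, limma adjusted p = 0.130).

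Of the 11 tested transporters that carry conjugates and their precursors across hepatocyte membranes, 1 fell, 0 rose and 9 were below 0 (median -0.25). Over all genes tested 0.512% fell, 0.289% rose and 62.8% were below 0. Abcg2, an export pump of the canalicular membrane that carries sulfates, fell from 25.1 ± 1.10 to 14.9 ± 1.10 FPKM (-0.71, SE 0.10, limma adjusted p = 0.0399, SD, n = 3 each). Its call held without HA replicate 2 only, with limma adjusted p up to 0.166 over the 6 fits, and it was lost with scaling outside Alb (0.0539). Slco1b2, the uptake carrier for bilirubin and bile acids, was at 619 ± 55.4 and 332 ± 67.8 FPKM and just missed the threshold (-0.91, SE 0.16, limma adjusted p = 0.0557).

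None of the 8 tested genes of sulfate uptake and PAPS supply, which include Papss1 and Papss2, rose or fell by limma, and 2 were lower at an unadjusted p under 0.05, beside 13.1% of all genes (median -0.11). Suox, the mitochondrial sulfite oxidase, was at 72.9 ± 4.75 and 50.3 ± 12.7 FPKM (limma adjusted p = 0.173), and Bpnt1, which removes the PAPS product, at 11.4 ± 0.168 and 9.67 ± 0.453 FPKM (limma adjusted p = 0.260). Voom called 0 of this list too.

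The enzymes that remove the conjugates again did not pass the test. Of 2 genes of glucuronide cleavage, the lysosomal glucuronidase Gusb was at 2.32 ± 0.0678 and 2.35 ± 0.146 FPKM (limma adjusted p = 0.963), and Abhd10 at 0.756 ± 0.128 and 1.09 ± 0.224 FPKM (limma adjusted p = 0.300). Neither was under an unadjusted p of 0.05, and voom called 0. Of 11 sulfatases 0 rose or fell by limma or voom, 1 was lower at an unadjusted p under 0.05, a share under the 13.1% of all genes, and the median was -0.10. Arsa, a lysosomal arylsulfatase, had the smallest p among them, at 20.9 ± 4.08 and 15.2 ± 0.508 FPKM (limma adjusted p = 0.192).

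The regulators of UGT and SULT genes comprised 21 genes, which are nuclear receptors and other transcription factors together with Keap1. None passed the threshold by limma or voom, and 5 were lower at an unadjusted p under 0.05, beside 13.1% of all genes. A change below 0 was fitted for 19 of the 21, beside 62.8% of all genes, with a list median of -0.21. Ppara, a fatty acid receptor, was at 41.0 ± 6.03 and 25.8 ± 6.91 FPKM (-0.67, SE 0.20, limma adjusted p = 0.151), and Cebpa at 159.6 ± 2.34 and 127 ± 15.02 FPKM (-0.34, SE 0.11, limma adjusted p = 0.195).

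The Golgi sulfotransferases were set beside the cytosolic ones. They use PAPS to sulfate sugar chains or, for the listed Tpst1 and Tpst2, proteins, rather than small molecules. Of 9 tested, 1 rose, 0 fell and 4 were below 0, beside 0.289%, 0.512% and 62.8% of all genes. The median of the list was 0.02. Hs3st3b1, a heparan sulfate sulfotransferase, rose from 8.32 ± 0.696 to 15.2 ± 1.82 FPKM (0.79, SE 0.12, limma adjusted p = 0.0424, SD, n = 3 each). Its call held without HA replicate 2 only, with limma adjusted p up to 0.154 over the 6 fits. Hs6st1 was at 30.03 ± 1.83 and 24.2 ± 1.21 FPKM (limma adjusted p = 0.177). Ugt8a, a UGT superfamily member that uses UDP-galactose, was below the minimum level.

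**Figure D5:**
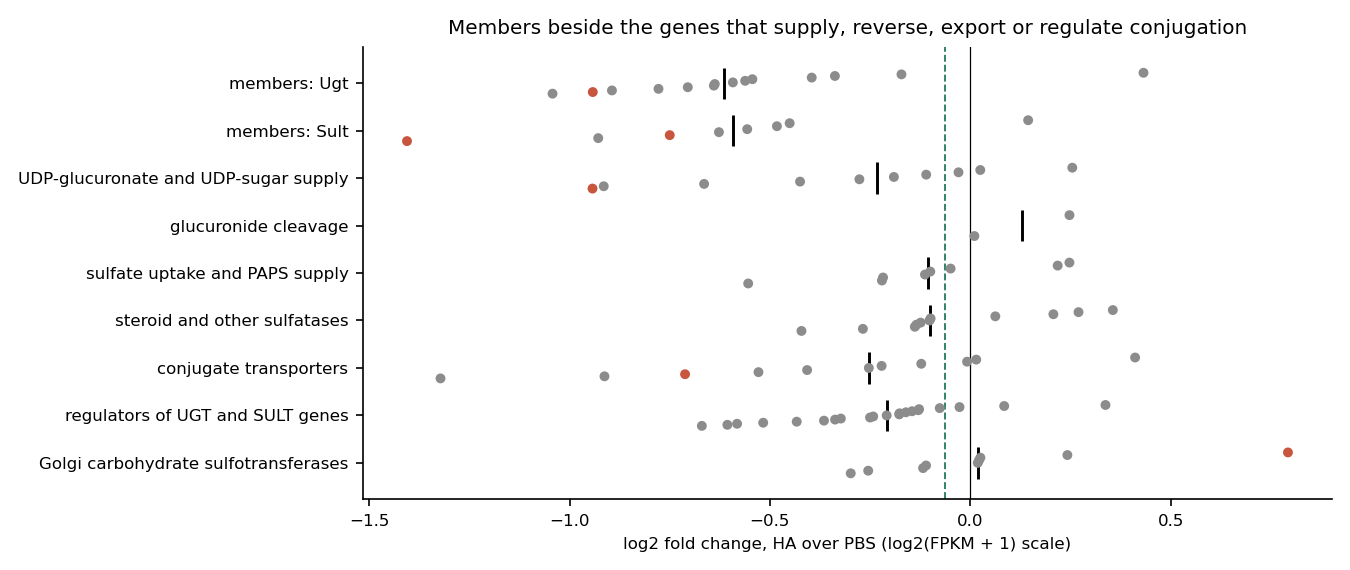
Log2 fold change of HA over PBS for each tested gene of the Ugt and Sult families and of the lists around them, with the list median as a black bar and the median of all genes tested as a green dashed line. Red points passed the adjusted threshold: Ugt2b1, Sult1c2, Sult2a7, Entpd5 and Abcg2 on the lower side and Hs3st3b1 on the higher side.

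Among the marker lists, the sums over pericentral genes did not overlap between the groups and were lower with HA. The hepatocyte and Kupffer cell sums given above did not overlap either and were higher with HA. Of the 8 hepatocyte genes 3 were below 0, 5 overlapped between the groups and 0 passed the threshold, beside 62.8% of all genes below 0. Their sum includes Alb, whose larger share of the HA fragments is given above. Of the 6 Kupffer cell genes 0 were below 0, 5 overlapped and 0 passed. The 10 genes of pericentral hepatocytes, which border the central vein, summed to 10054 to 10579 FPKM in the PBS livers and to 3878, 5533 and 6801 FPKM in HA replicates 1 to 3. Of these 10 genes 1 fell and 9 were below 0, beside 0.512% and 62.8% of all genes tested, and the median was -0.63. The 8 periportal genes summed to 2556 to 3410 FPKM after PBS and 2708 to 4268 FPKM after HA, which overlap, with a median of 0.24. Of 10 genes that are male-biased in liver 2 fell and 7 were below 0, beside 0.512% and 62.8% of all genes tested. Their sums overlapped at 1769 to 2898 FPKM in the PBS and 1243 to 2376 FPKM in the HA livers. Of 5 tested female-biased genes 3 were below 0 and 0 passed by limma or voom. With an unadjusted p under 0.05, 1 was lower and 1 higher, beside 13.1% and 4.61% of all genes. The female-biased sums overlapped at 121 to 185 FPKM in the PBS and 95.9 to 192 FPKM in the HA livers. The 3 intestinal markers in the table, nearly all Fabp2, a fatty acid binding protein that was at 152.5 to 191 and 83.9 to 115 FPKM, did not overlap between the groups. The part of these lists in the values of the members was not tested. The 3 kidney tubule markers in the table summed to at most 0.608 FPKM in any library, and the 6 cholangiocyte markers to 3.62 to 8.89 FPKM.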

How the data were processed

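The authors deposited 1 table of FPKM values, 1 column per liver. Per the submitters' processing notes, Trimmomatic and HISAT2 were used with build GRCm39. For the counter, annotation, filters, strand setting and tool versions nothing is stated, and the unit was inferred from the numbers. Per the labels' protocols, TRIzol was used to extract RNA, and 2 library kits are named without saying which was used. The values still held the depth: all 99828 (100%) were whole fragments within 0.0001 once the library totals were found, and a common factor could remain.

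Groups follow the treatment label. The model was limma (version 3.58.1, R 4.3.3) applied to log2(FPKM + 1). Treatment was its single term, the variance followed a trend, and genes averaging under 0.5 FPKM were left out. P-values are two-sided with Benjamini-Hochberg adjustment over all 10745 genes and a threshold of 0.05. An exact permutation test of 3 against 3 cannot go below 0.1, which is why single values have no test outside this fit. Scripts were tested on simulated data.

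Every member was accounted for; those with a mean of at least 0.5 FPKM are named, and 6-library values are given for those at 5 FPKM or past the threshold. From each pathway list, genes past the threshold and the 2 with the smallest p are named, and 1 gene so chosen is not reported here. Marker lists are given by counts and sums. Members and lists were chosen with earlier results of these data known. Alternatives were another pseudocount, filters, no trend, median centring, scaling outside Alb, voom on the fragments, a replicate block and leaving out each library. Sequences are from GENCODE M21 (GRCm38) and RefSeq (GRCm38.p6), another build than the table's, and serve for sequence only. Counting error is all that the limits of 3 fragments cover.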

Additional observations from a re-analysis of the deposited data

How the results depend on the processing

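Over the 24 tested members and 14 genes chosen from the lists, 476 of 530 values under the alternatives kept their direction and their side of the threshold, 48 kept the direction but no longer passed, 1 now passed and 5 reversed. All 48 belonged to the genes that had passed, Ugt2b1, Sult2a7, Sult1c2, Abcg2, Entpd5 and Hs3st3b1. Most of the 530 values were from genes with no call to lose. The 5 reversals came from leaving out 1 library each, which gave -0.15 to 0.42 for Papss1, -0.000601 to 0.23 for Sult1a1, -0.12 to 1.32 for Ugt1a5 and -0.024 to 0.038 for Gusb. The cause was not tested. Ugt2b1 passed under 9 of 14 alternatives, Sult2a7 under 5 and Sult1c2 under 4. From the lists, Abcg2 passed under 6 of 14, Entpd5 under 5 and Hs3st3b1 under 7. Leaving out 1 library each gave 0 to 2 members lower and 0 to 1 higher, and over all genes 4 to 69 lower and 1 to 46 higher. Testing every gene without a filter left 1 member lower (Ugt2b1) and 10 genes lower and 7 higher in all. Voom left 1 member lower, Ugt2b1. Median centring gave 32 genes lower and 36 higher, and scaling outside Alb 24 and 33, against 55 and 31. These scalings moved the median of all genes from -0.06 to 0.0004 and 0.0026, with 21 members below 0 in each. The Sult median was -0.83 with a pseudocount of 0.1 and -0.86 with voom. Deviations from the group mean correlated at -0.14, -0.13 and 0.18 between samples with the same number. Between samples with different numbers the correlations ran from -0.13 to 0.22. With 3 livers a group this cannot show whether the numbers pair the samples. With a replicate block 0 members passed, and 9 genes were lower and 7 higher in all. The filter at 1 FPKM leaves out Sult1e1. The 3 livers a group, the shared Ugt1a exons, the adrenal and muscle transcripts of PBS replicate 1 and the Alb share limit these values.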
